A study of Mus musculus with 2 samples.

Results

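The 35 genes described here encode the glucose transporters and enzymes that carry glucose to pyruvate, the enzymes that set fructose 2,6-bisphosphate, 2 gluconeogenic enzymes, the pentose phosphate pathway and the phosphoglucomutases. They were chosen by name for these roles, out of 27789 genes and transcripts with a usable probe on the array. The RNA came from a pair of GFP-expressing lines of B16F1, a murine melanoma, grown in the same serum-containing medium without treatment. B16F1-GFP-M was the maternal line. B16F1-GFP-D was a clonal line expanded from a single colony of GFP-positive cells, which had been sorted by flow cytometry from the pooled organs of tumour-free control and immunised mice long after challenge with B16F1-GFP cells, so its name refers to the founding cell and not to the state of the cultured cells. Because only 1 such clone was profiled, differences tied to dormancy and differences between any clone and the maternal line cannot be told apart.

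Glycolysis captures glucose as glucose 6-phosphate, splits it into triose phosphates and oxidises these to pyruvate, yielding ATP and NADH. Most tumour cells, melanoma cells included, run it at a high rate even in the presence of oxygen and export much of the pyruvate as lactate. The pentose phosphate pathway branches off at glucose 6-phosphate: its oxidative arm makes NADPH, and its non-oxidative arm exchanges ribose phosphate with glycolytic intermediates. Several steps are served by isozymes, which are encoded by separate genes and differ in regulation and tissue distribution.

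Both lines were hybridised together on 2 dual-colour arrays with the dyes exchanged, so that each line carried Cy5 on 1 array and Cy3 on the other. The labels name no separate cultures, and the arrays were therefore counted as 1 replicate per line. No test was possible, and no p-value is given. The SD between the arrays (n = 2 arrays) was read as covering the hybridisation and the dyes only, since the labels name no separate RNA extracts. All ratios are on the log2 scale and set B16F1-GFP-D against B16F1-GFP-M, positive where the signal was higher in B16F1-GFP-D. A gene was detected where its probe was well above background in the same line on both arrays, and it was taken as different where the log2 ratio of each array was 1 or more, or -1 or less (2-fold). Spots well above background made up 44.1% to 60.7% of the spots per line and array, and no spot was saturated. In all, 12545 genes were detected, with a median log2 ratio of -0.01 and a pooled SD between arrays of 0.15. All 8 melanocyte markers were detected in the lines and lay between -0.92 and 0.30. Of the fibroblast, leukocyte and brain markers 2 of 6, 3 of 6 and 2 of 4 were detected, those of endothelium, epithelium, liver and skeletal muscle were not, and no marker of any list differed by 2-fold on both arrays. In the log ratios of the scanner software, however, the fibroblast marker Col1a1 (1.69 and 2.25, against 0.38 and 0.41 here) and the leukocyte marker Cd68 (1.81 and 1.56, against 0.51 and 0.36) were past 2-fold, and their part in the results was not tested. In a whole culture, fewer cells of a type and less RNA per cell cannot be told apart.

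Of the 35 genes, 33 were detected, Fbp1 and Pgam2 being the exceptions. By this rule B16F1-GFP-D had the higher signal for 9 genes: the glucose transporter Slc2a1, the hexokinases Hk1 and Hk2, the phosphofructokinases Pfkl and Pfkp, and Tpi1, Pgam1, Eno1 and Pgm1. It had the lower signal for 1 gene, Pck2. Over all detected genes, 387 (3.08%) met the rule as higher and 243 (1.94%) as lower. The median log2 ratio of the 33 genes was 0.41 (0.27 on array 1 and 0.46 on array 2), 24 had a positive ratio on both arrays, 7 a negative one on both, and 2 had opposite signs. The corresponding shares of all detected genes were 41.0% positive and 42.8% negative.

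**Figure D1:**
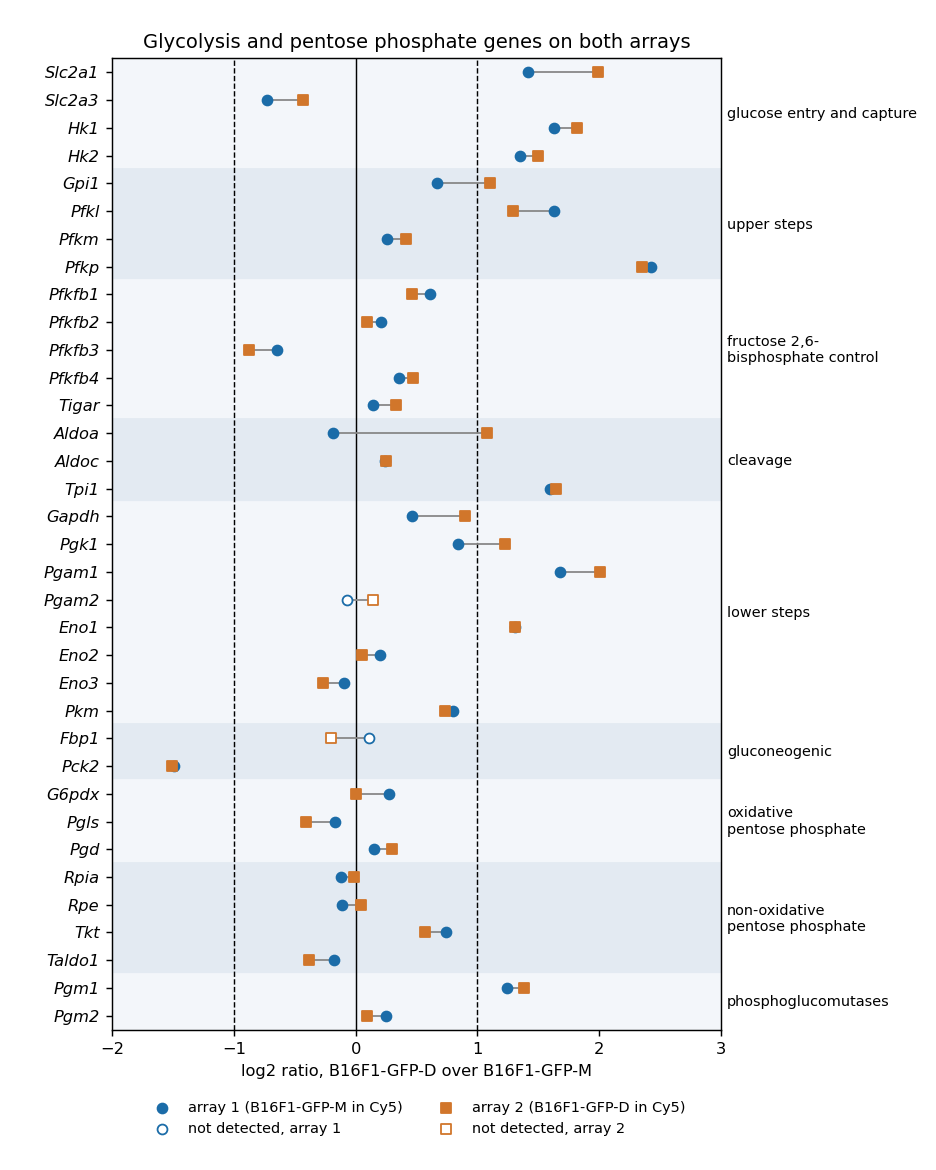
Log2 ratio, B16F1-GFP-D relative to B16F1-GFP-M (x axis) for each of the 35 genes in pathway order, on array 1 (circles) and array 2 (squares), joined by a line; open symbols mark the 2 genes not detected and dashed lines mark 2-fold. The genes beyond the right dashed line on both arrays lie between glucose entry and the enolase step, plus Pgm1, and Pck2 alone lies beyond the left one.

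The 18 detected genes that carry glucose to pyruvate held 8 of the 9 higher genes and had a median log2 ratio of 0.96. The first of them, Slc2a1, encodes the widespread basal glucose transporter GLUT1. Its normalised log2 intensity was 9.91 in B16F1-GFP-M and 11.33 in B16F1-GFP-D on array 1, and 9.92 and 11.90 on array 2. The mean log2 ratio was 1.70 ± 0.40 (SD, n = 2 arrays), or 3.25-fold. Slc2a3, which encodes the high-affinity transporter GLUT3, had the opposite sign, at -0.73 and -0.43. The log2 ratio of Slc2a1 exceeded that of Slc2a3 by 2.15 on array 1 and 2.42 on array 2. The other probes of Slc2a3, 1 of which the array design places on chromosome 17 and not on chromosome 6, were not detected.

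Hexokinase traps glucose in the cell as glucose 6-phosphate. The log2 intensity of Hk1, the housekeeping form, was 10.90 in B16F1-GFP-M and 12.53 in B16F1-GFP-D on array 1 and 10.60 and 12.42 on array 2, a mean log2 ratio of 1.72 ± 0.13 (3.30-fold). Hk2, the form typical of muscle and of many tumours, stood at 10.16 and 11.51 on array 1 and at 10.02 and 11.52 on array 2, a mean of 1.42 ± 0.10 (2.68-fold). Both hexokinases were thus higher in B16F1-GFP-D, and their log2 ratios differed by 0.28 and 0.32. The glucose 6-phosphate isomerase gene Gpi1 reached 0.67 and 1.10 and was past 2-fold on array 2 alone.

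Phosphofructokinase catalyses the committed step of glycolysis, and its 3 isozyme genes differed from each other. Pfkp, the platelet form, had the highest log2 ratio of all 35 genes. Its log2 intensity was 8.42 in B16F1-GFP-M and 10.85 in B16F1-GFP-D on array 1 and 8.55 and 10.90 on array 2, a mean log2 ratio of 2.39 ± 0.06 (5.25-fold). Pfkl, the liver form, rested on 9.73 and 11.36 on array 1 and on 9.84 and 11.14 on array 2, with a mean of 1.46 ± 0.24 (2.76-fold). Pfkm, the muscle form, had log2 ratios of only 0.26 and 0.41. The log2 ratio of Pfkp exceeded that of Pfkm by 2.17 and 1.94, and that of Pfkl exceeded it by 1.37 and 0.88. The SD of these gaps between the arrays was 0.16 for Pfkp and 0.34 for Pfkl.

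The bifunctional enzymes encoded by Pfkfb1 to Pfkfb4 make and degrade fructose 2,6-bisphosphate, a potent activator of phosphofructokinase, and Tigar encodes a phosphatase that lowers it. None of these 5 genes differed by 2-fold on both arrays, and their median was 0.23. Pfkfb3, whose product strongly favours synthesis, was the lowest at -0.65 and -0.88, and its 2 other probes were also below 0, at means of -0.45 and -0.12. Pfkfb4 stood at 0.36 and 0.47, above Pfkfb3 by 1.01 and 1.35. Pfkfb1 gave 0.61 and 0.46 on a dim probe and was past 2-fold, at 1.29 and 1.04, in the log ratios of the scanner software. Pfkfb2 and Tigar lay between 0.09 and 0.33 on both arrays.

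Aldolase and triose phosphate isomerase complete the preparatory phase. Tpi1 had log2 intensities of 14.70 in B16F1-GFP-M and 16.30 in B16F1-GFP-D on array 1, and 14.36 and 16.01 on array 2. Its mean log2 ratio was 1.63 ± 0.04 (3.09-fold), with hardly any distance between the arrays. Aldoa, the main aldolase of most tissues, was the gene on which the arrays disagreed most, with -0.19 on array 1 and 1.08 on array 2. Its second probe split the same way, at -0.02 and 0.97, so no direction can be given for Aldoa. Aldoc gave 0.24 and 0.25, but its dimmer probe gave -0.17 and -0.15.

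In the pay-off phase, Pgam1, the phosphoglycerate mutase of most tissues, was higher by the widest margin. Its log2 intensity was 14.46 in B16F1-GFP-M and 16.14 in B16F1-GFP-D on array 1, and 13.97 and 15.99 on array 2, a mean log2 ratio of 1.85 ± 0.23 (3.60-fold). The muscle form, Pgam2, was not detected. Eno1, the ubiquitous enolase, went from 12.43 to 13.74 between the lines on array 1 and from 12.46 to 13.77 on array 2, which gave 1.31 on each array (2.48-fold). The neuronal form Eno2 had 0.20 and 0.05 and the muscle form Eno3 had -0.10 and -0.27. The log2 ratio of Eno1 therefore exceeded that of Eno2 by 1.12 and 1.26 and that of Eno3 by 1.42 and 1.58.

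The remaining lower steps were higher on both arrays without meeting the rule. Pgk1, which encodes the first ATP-yielding kinase of the pathway, had 0.84 and 1.23, a mean of 1.03 ± 0.27, and missed 2-fold on array 1. Its second probe gave 0.77 and 1.33. The array design places both Pgk1 probes on chromosome 3, whereas Pgk1 lies on X and a Pgk1 pseudogene, Pgk1-ps3, lies on chromosome 3 in RefSeq, so these probes may not tell the gene from that copy. Gapdh, often used as a reference gene, stood at 0.46 and 0.90. Pkm, the pyruvate kinase gene of non-hepatic tissues, stood at 0.80 and 0.73 on its brightest probe, and its other probes averaged 0.89 and 0.91. All 3 probes carry the older gene name Pkm2 on the array, and whether they tell the splice forms apart was not tested.

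**Figure D2:**
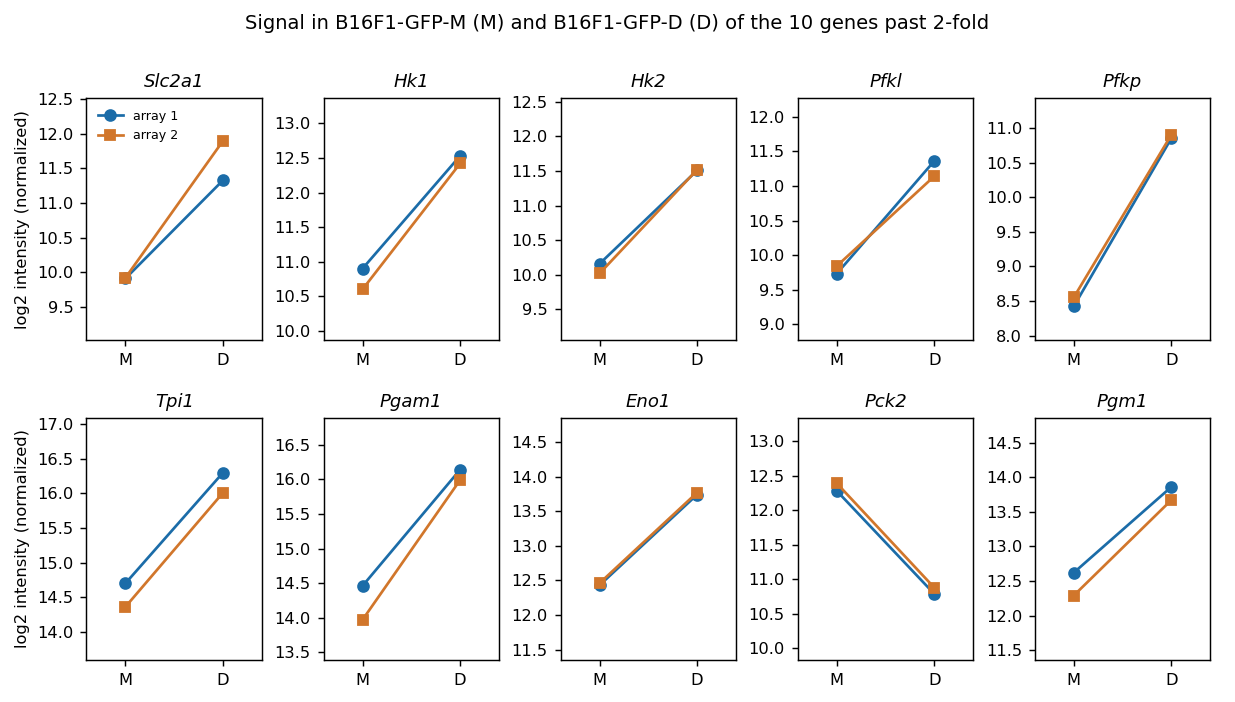
Normalised log2 intensity (y axis) in B16F1-GFP-M (M) and B16F1-GFP-D (D) on array 1 (circles) and array 2 (squares) for the 10 genes past 2-fold on both arrays; all panels span the same number of log2 units but start at different values, since levels of different probes cannot be compared. The lines run upwards on both arrays in 9 panels and downwards in that of Pck2, and the arrays lie farthest apart for Slc2a1 in B16F1-GFP-D.

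Pck2, which encodes the mitochondrial form of phosphoenolpyruvate carboxykinase, was the one gene lower by the rule. Its log2 intensity was 12.28 in B16F1-GFP-M and 10.79 in B16F1-GFP-D on array 1, and 12.39 and 10.88 on array 2. The mean log2 ratio was -1.5 ± 0.01, a signal 2.83-fold lower than in B16F1-GFP-M. The other gluconeogenic gene, Fbp1, encodes fructose-1,6-bisphosphatase and was not well above background in either line on either array.

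All 7 pentose phosphate genes were detected and none differed by 2-fold on both arrays. Their median log2 ratio was -0.04, with 3 higher on both arrays, 3 lower on both and Rpe of opposite signs. In the oxidative arm, G6pdx, the gene of the rate-limiting dehydrogenase, had 0.27 and 0.00, Pgls had -0.17 and -0.41, and Pgd had 0.15 and 0.30. In the non-oxidative arm, the transketolase gene Tkt was the highest of the 7 at 0.74 and 0.57, and the transaldolase gene Taldo1 was below 0 at -0.18 and -0.38. The isomerase gene Rpia gave -0.12 and -0.01, and the epimerase gene Rpe gave -0.11 and 0.04. The absence of a 2-fold ratio here is a statement of size, and smaller differences were not tested.

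The phosphoglucomutases link glucose 6-phosphate with glycogen and nucleotide sugars. The array carries their older names the other way round, and each probe was named here through its RefSeq accession. Pgm1 (named Pgm2 on the array) had log2 intensities of 12.62 in B16F1-GFP-M and 13.86 in B16F1-GFP-D on array 1, and 12.29 and 13.67 on array 2, a mean log2 ratio of 1.31 ± 0.10 (2.48-fold). Pgm2 had a dim probe, with 0.25 and 0.09. The log2 ratio of Pgm1 exceeded that of Pgm2 by 0.99 and 1.29, but in the log ratios of the scanner software the means of Pgm1 and Pgm2 were 1.27 and 1.25. With an offset of 0 they were 1.28 and 0.38, and without background subtraction 1.31 and 0.30. The cause of the scanner's value for Pgm2 was not tested.

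The genes were represented by 64 probes, of which 55 were detected. For 15 genes more than 1 probe was detected, and in 12 of them all detected probes had the same sign, the exceptions being Pfkfb2, Aldoc and Rpe. Size varied more than sign. The 5 detected Hk1 probes ranged from 0.61 to 1.72, the 3 Pfkp probes from 0.74 to 2.39 and the 2 Tpi1 probes from 0.63 to 1.63, and in each of these genes the brightest probe, whose value is given above, had the highest ratio. This order depended on the processing: in the scanner's log ratios a dimmer probe exceeded the brightest in Hk1 (means of 2.13 and 1.77) and in Pfkp (2.98 and 2.67). The offset added to the signals before logs were taken draws the ratios of dim probes towards 0. In mm9, the brightest probes lie at chr10:61731916-61731975 (Hk1), chr13:6581718-6583872 (Pfkp, a longer span than the others) and chr6:124760947-124761006 (Tpi1). Whether a probe lies in coding sequence or in a UTR is not given in the sources used here.

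**Figure D3:**
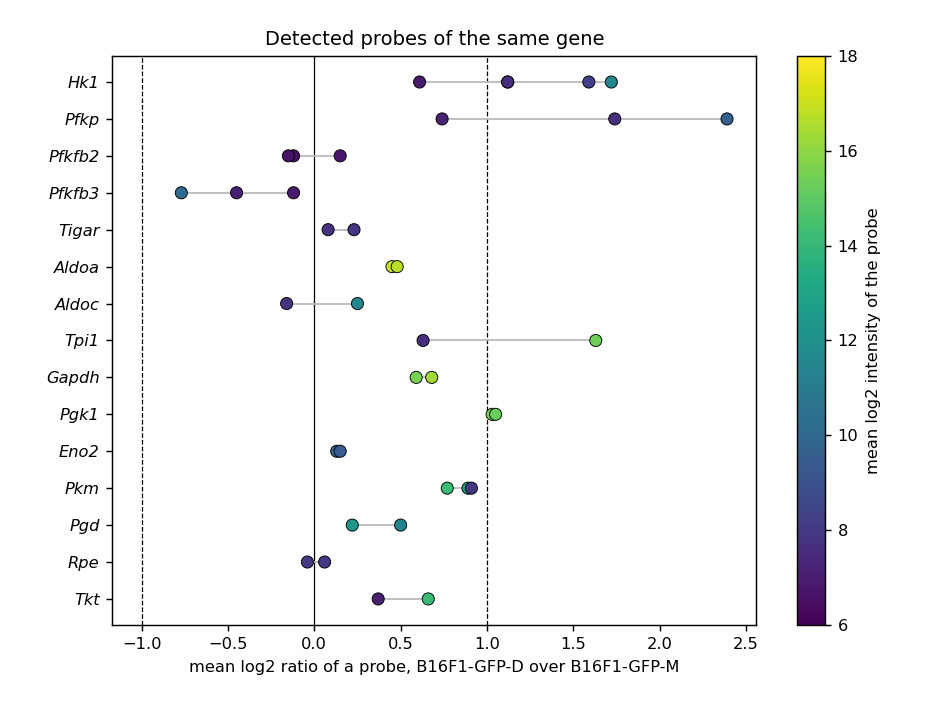
Mean log2 ratio, B16F1-GFP-D relative to B16F1-GFP-M (x axis) of every detected probe for the 15 genes with more than 1, coloured by the mean log2 intensity of the probe. The dots of Hk1, Pfkp, Tpi1, Pkm, Gapdh and Pgk1 all lie to the right of 0, and in Hk1, Pfkp and Tpi1 the brightest dot lies farthest to the right.

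Some of the brightest genes gave unlike ratios on the 2 arrays. Of the 33 detected genes, 6 had a mean log2 intensity of at least 15, a limit set after their values had been seen: Gpi1, Aldoa, Tpi1, Gapdh, Pgk1 and Pgam1. All 6 had the higher ratio on array 2, by 0.05 to 1.27. Among all detected genes that bright, 140 of 185 had the higher ratio on array 2, with a median difference of 0.18. In the 27 dimmer genes the distance between the arrays was 0.01 to 0.57 in either direction, with a median of 0.15. The part of brightness in the result for Aldoa, Gapdh, Gpi1 and Pgk1 was not tested.

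Promoter sequences are shown for 4 higher genes and the lower gene, each with a single window, since several glycolytic genes were higher together and many of their promoters are known to hold hypoxia response elements, whose core letters are ACGTG or GCGTG. RefSeq windows of 300 bases (250 before to 50 after the start, GRCm38.p6) existed for 34 of the 35 genes. The windows of Slc2a1 (chr4:119108495-119108794, plus strand), Pfkp (chr13:6648722-6649021, minus strand), Pgam1 (chr19:41911621-41911920, plus strand) and Tpi1 (chr6:124814109-124814408, minus strand) belong to higher genes, and that of Pck2 (chr14:55540016-55540315, plus strand) belongs to the lower gene. Each reads 5′ to 3′ on the strand of the gene, with a core on either strand in capitals (CACGT and CACGC are the cores on the opposite strand).
Slc2a1: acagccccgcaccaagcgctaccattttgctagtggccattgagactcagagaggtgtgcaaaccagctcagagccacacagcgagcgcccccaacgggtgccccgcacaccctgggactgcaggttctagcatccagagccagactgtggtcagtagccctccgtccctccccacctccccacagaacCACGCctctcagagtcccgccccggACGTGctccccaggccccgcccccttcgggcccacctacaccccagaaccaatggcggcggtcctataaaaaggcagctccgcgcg
Pfkp: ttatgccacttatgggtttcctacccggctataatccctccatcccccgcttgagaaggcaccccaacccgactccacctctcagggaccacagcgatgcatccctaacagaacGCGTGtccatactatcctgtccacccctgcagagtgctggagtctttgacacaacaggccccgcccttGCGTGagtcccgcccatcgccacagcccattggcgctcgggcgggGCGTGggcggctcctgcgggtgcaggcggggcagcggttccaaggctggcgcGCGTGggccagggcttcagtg
Pgam1: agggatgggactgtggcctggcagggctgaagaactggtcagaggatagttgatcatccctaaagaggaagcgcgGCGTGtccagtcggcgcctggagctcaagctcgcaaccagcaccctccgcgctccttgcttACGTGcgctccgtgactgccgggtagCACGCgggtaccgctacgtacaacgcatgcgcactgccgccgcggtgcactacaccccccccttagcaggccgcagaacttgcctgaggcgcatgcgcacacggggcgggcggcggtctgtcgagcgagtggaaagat
Tpi1: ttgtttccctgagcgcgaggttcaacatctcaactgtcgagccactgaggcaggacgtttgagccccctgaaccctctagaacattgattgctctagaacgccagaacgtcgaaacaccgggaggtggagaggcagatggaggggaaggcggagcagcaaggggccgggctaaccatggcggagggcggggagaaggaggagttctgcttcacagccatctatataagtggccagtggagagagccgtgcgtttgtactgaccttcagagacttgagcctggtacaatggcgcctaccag
Pck2: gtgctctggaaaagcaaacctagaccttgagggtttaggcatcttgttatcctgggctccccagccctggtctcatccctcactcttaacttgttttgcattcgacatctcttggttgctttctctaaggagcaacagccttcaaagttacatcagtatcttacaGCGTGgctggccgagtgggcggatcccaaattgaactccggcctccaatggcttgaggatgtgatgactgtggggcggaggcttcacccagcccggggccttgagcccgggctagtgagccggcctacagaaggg

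The windows shown hold 2 cores (Slc2a1), 4 (Pfkp), 3 (Pgam1), none (Tpi1) and 1 (Pck2). Of the 2 windows of Hk1, which are not shown, 1 held 5 cores and the other held none. The other higher genes with a single window, Hk2, Pfkl and Pgm1, are not shown either and held 2, 1 and 2 cores. Over all 51 windows of the 34 genes, 36 (70.6%) held at least 1 core, against 43.8% of the 32851 windows of all genes. The windows were also richer in G and C, with a median of 59.0% against 52.7%. Between 55% and 70% GC the shares were 80.6% and 61.7%, and at 60% GC or more they were 88.0% and 69.2%, both limits having been chosen after the windows had been seen. The 12 windows of the higher genes held a core in 10 (83.3%) and the 39 windows of the other genes in 66.7%. Their median GC was 64.0% and 57.3%, and this contrast was not matched for GC. Of the 12 windows, 3 belong to Eno1 and overlap in part. CACGTG, which contains ACGTG on both strands and is bound by MYC and related factors, was in 5.88% of the windows and in 7.15% of all windows. Between 55% and 70% GC these shares were 5.56% and 10.1%, and at 60% GC or more they were 8.0% and 10.8%. None of the 12 windows of the higher genes held CACGTG, but with shares this low among all genes 12 windows are too few to read that. These are matches of letters, were not tested, and say nothing of whether a factor was bound.

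Neighbouring branches were counted as whole lists, chosen by function. Of the 4 genes of lactate metabolism, all were higher on both arrays and 2 met the rule. Slc16a3, which encodes the lactate exporter MCT4, had 3.30 and 3.54, and Ldha, which encodes the lactate dehydrogenase subunit that favours lactate formation, had 1.55 and 2.22. All 16 genes of the tricarboxylic acid cycle were higher on both arrays, with a median of 0.57, and 2 met the rule: Idh3a (1.17 and 1.72) and Sdhd (1.5 and 1.19). The 18 detected genes from glucose entry to pyruvate had a median of 0.96, with 2 lower on both arrays and 1 of opposite signs.

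**Figure D4:**
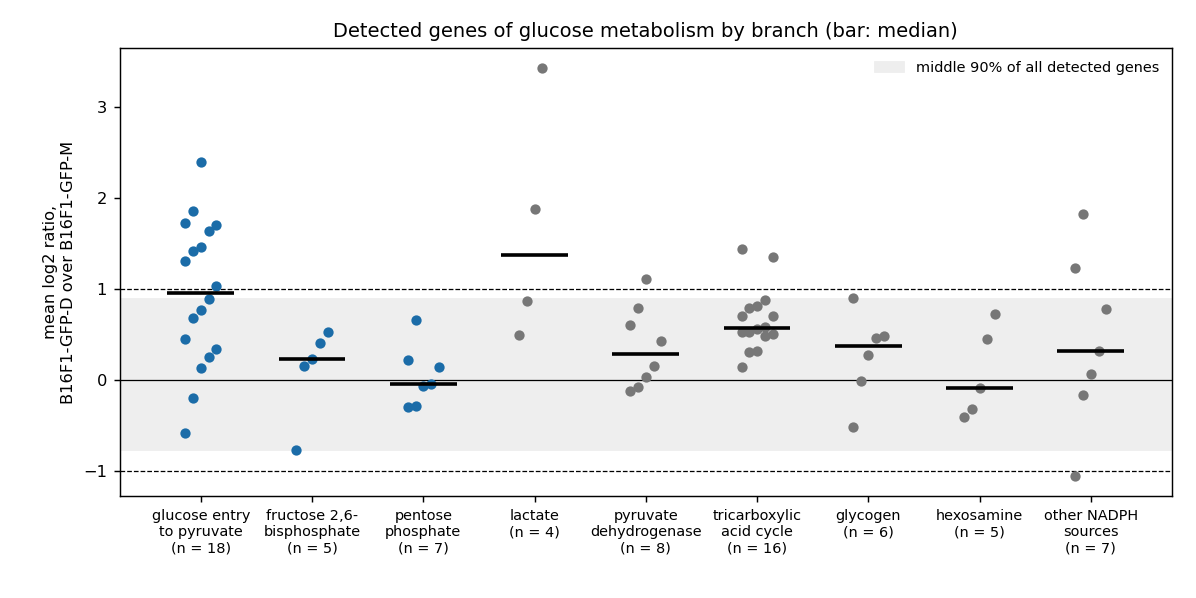
Mean log2 ratio, B16F1-GFP-D relative to B16F1-GFP-M (y axis) of each detected gene by branch, with the median as a bar. Glucose entry to pyruvate, fructose 2,6-bisphosphate control and pentose phosphate are in blue, and neighbouring lists in grey. Of the detected genes of the 35-gene set, Pck2 (mean of -1.5), Pgm1 (1.31) and Pgm2 (0.17) are not drawn. The shaded band holds the middle 90% of all detected genes (-0.77 to 0.89). Several glycolytic genes and 2 of the 4 lactate genes reach far above the band. Genes of the tricarboxylic acid cycle (Idh3a, Sdhd), pyruvate dehydrogenase (Pdk1) and other NADPH (Idh2, Mthfd1) lists also lie above it, and Mthfd2 lies below it. Pygb of the glycogen list, at 0.9, lies just past its upper edge. The pentose phosphate genes lie inside the band around 0.

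Of the pyruvate dehydrogenase complex and its kinases and phosphatases, 8 of the 10 genes on the array were detected and none met the rule, with a median of 0.29. Pdk1, a kinase that inhibits the complex, had 0.99 and 1.24 and missed the rule on array 1, but was past 2-fold on both arrays in the scanner's log ratios (1.25 and 1.5). The glycogen (6 of 8 detected, median 0.37) and hexosamine (5 of 5, median -0.09) lists also held no gene past 2-fold on both arrays. Pygb, of the glycogen list, had 0.85 and 0.95, but was past 2-fold on both arrays in the scanner's log ratios (1.02 and 1.06). Among 7 other sources of NADPH, Idh2 (1.80 and 1.84) and Mthfd1 (1.28 and 1.17) met the rule as higher. Mthfd2, a mitochondrial folate enzyme, had -1.18 and -0.91 and missed the rule on array 2, and the median of the list was 0.32. Of 25 further isozymes and neighbours of the pathway on the array, 12 were detected, with a median of 0.02. Among them Pgp, the phosphoglycolate phosphatase, was higher at 1.14 and 1.20. Of 12 regulators 10 were detected, with a median of -0.01, 4 higher on both arrays, 3 lower on both and 3 of opposite signs. Egln1, an oxygen-sensing prolyl hydroxylase, was higher at 1.49 and 2.17, and Txnip, which restrains glucose uptake, was lower at -1.44 and -1.5. Myc, which encodes a transcription factor, had -0.98 and -1.17 and missed the rule on array 1, but was past 2-fold on both arrays in the scanner's log ratios (-1.06 and -1.36).

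The sign of all 10 genes past 2-fold was the same under each of 11 other ways of processing the arrays, but under several of these it could not change. Either array alone keeps it, since the rule needs 2-fold on each array. Scaling between the arrays and the changes of filter left the ratios as they were, and the deposited value table repeats the scanner's log ratios. The number that met the rule varied. With each array centred on its median in place of loess, only Pfkp met the rule. The 9 higher genes then had means of 1.56 to 2.48, but their ratios were 0.18 to 1.44 on array 1 and 2.57 to 3.82 on array 2, and the median distance between the arrays over all detected genes was 2.08 against 0.14 with loess. Of the 33 detected genes, 27 kept their sign throughout, the others being Pfkfb2, Aldoa, G6pdx, Rpia, Rpe and Taldo1.

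**Figure D5:**
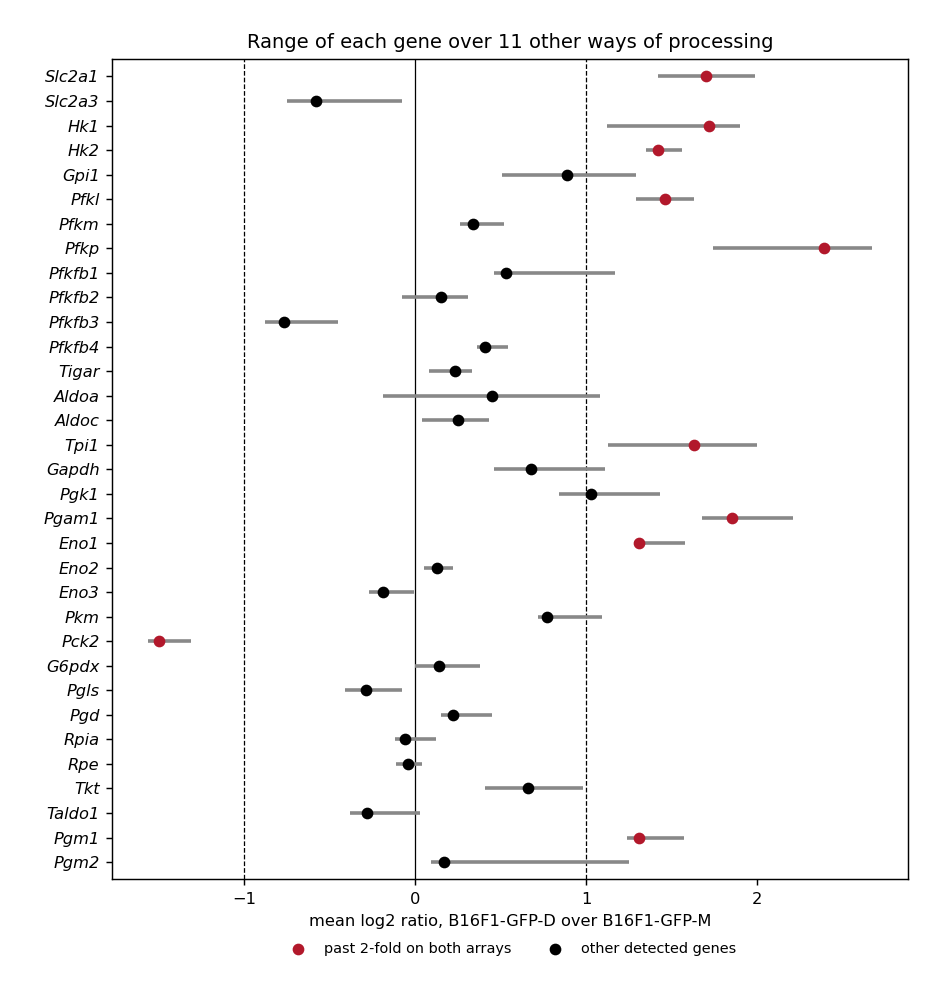
Mean log2 ratio, B16F1-GFP-D relative to B16F1-GFP-M (x axis) of the 33 detected genes: dots are the values reported, red for the 10 genes past 2-fold on both arrays, and lines span the lowest to the highest value under 11 other ways of processing. No line of a red dot reaches 0, while those of Aldoa (-0.19 to 1.08) and Pgm2 (0.09 to 1.25) are the longest.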

How the data were processed

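RNA of both lines was hybridised to 2 Agilent arrays of 1 slide with exchanged dyes. Per the file headers, the deposited intensity values and log10 ratios came from Agilent Feature Extraction 10.7.3.1, with local background subtraction off and probe positions on mm9. The deposited value table holds the same log10 ratios to within 0.005, not turned for the dyes, with a median of 0 per array. The authors' quality flags gave signal well above background and outlier spots.

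Mean signals and median local backgrounds were corrected in limma 3.58.1 (R 4.3.3) by normexp with an offset of 50 and normalised by loess within each array. Control and outlier spots (143 and 176) had weight 0. The ratios of array 1, which carried B16F1-GFP-M in Cy5, were turned. Spots of a probe were averaged, and the brightest of a gene's probes was used. Of 28075 probes with a RefSeq accession, 27198 were named through RefSeq (GRCm38.p6, names and promoters only) and the rest by the array. The design named every member in the text, and genes of other lists where past 2-fold; others were named after their values were seen. The members and lists were chosen with earlier results of these data known. The code was run on simulated arrays with known changes, which checks the code and not the calls. The number of arrays limits the precision. The 11 alternatives changed the background correction, normalisation, filter, choice of probe or array, and the fold limit was moved to 1.5 and 3.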

Additional observations from a re-analysis of the deposited data

How the results depend on the processing

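The median log2 ratio of the detected genes (0.41) was 0.54 with the log ratios of the scanner software and with the deposited value table, and 0.27 to 0.43 with either array left out. The number of genes higher in B16F1-GFP-D (9) was 9 to 12 with either array left out, 1 with median centring (Pfkp) and 4 at 3-fold (Hk1, Pfkp, Tpi1 and Pgam1). The number lower (1) was 0 with median centring, 2 at 1.5-fold (Pfkfb3 added) and 0 at 3-fold. The other alternatives gave 9 or 10 higher genes and 1 lower gene, with 12 higher genes at 1.5-fold. Array 2 alone added Gpi1, Aldoa and Pgk1, and the scanner's log ratios and the deposited value table added Pfkfb1. Of 363 values of single genes, 56 moved by at least the SD between their arrays. Leaving out an array could not move a value by this measure, because each array lies within that SD of the mean of both. Scaling between the arrays and the changes of filter left the ratios as they were, so this count is no measure of stability. Over all detected genes, 387 were higher and 243 lower, against 760 and 598 with the scanner's ratios, 759 and 595 with the value table, 635 and 442 with an offset of 0, 45 and 19 with median centring, 1099 and 880 at 1.5-fold and 74 and 49 at 3-fold. With no offset the ratios of dim probes are larger, and the cause of the other differences was not tested. No paired analysis was possible because the labels name no separate cultures or extracts for the arrays, which were counted as 1 replicate per line. For dim probes such as those of Pgm2, Pfkfb1 and Pfkfb2, the low signal over background limits the ratios.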
